A study of Mus musculus with 12 samples.

Results

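Mural cells wrap the outside of blood vessels. Here they are the cells of a mouse retina Drop-seq series that carried RNA of at least 2 of 8 mural genes: RGS5, KCNJ8, ABCC9, PDGFRB, NOTCH3, VTN, CSPG4 and MGP. A cell also had to show at least 200 detected genes, at most 1 of the 4 endothelial genes CLDN5, PECAM1, CDH5 and LY6C1, and no RNA of RLBP1, a Müller glia gene. The rule found 492 cells among 24772 with at least 200 genes (25472 cells in all). The cells were thus chosen by their own RNA values. The 8 rule genes stayed in the fits across all genes and count among the genes that passed, but their values are given as a description and support nothing.

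All pups were of the C57B6 strain. Pups with oxygen-induced retinopathy (OIR) breathed 75% oxygen from postnatal day 7 to day 12, then room air, and were reared by a foster mother. NORM pups stayed in room air with their own mother, so rearing and oxygen cannot be told apart. Retinas were taken at postnatal day 14 (P14) or 17 (P17), whole or after depletion of rods. At P14 there were 5 OIR libraries, of which 2 were rod-depleted, and at P17 there were 3, of which 1 was. NORM had 1 library for each age and fraction. Nothing in the labels ties a library to an animal, so the p-values rest on library-to-library spread, and that spread may be technical.

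Pericytes sit on capillaries inside the basement membrane that they share with endothelial cells, and smooth muscle cells ring arterioles and larger veins. Endothelial cells draw pericytes to new vessels by secreting PDGF-B, which binds the receptor encoded by PDGFRB. RGS5 damps G protein signalling, KCNJ8 and ABCC9 form a potassium channel that opens when ATP falls, and MGP inhibits calcification and binds bone morphogenetic proteins. In this model high oxygen removes capillaries of the growing retina, and the return to room air is followed by hypoxia and by sprouting of new vessels.

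The 12 libraries held between 404572 and 7864609 UMIs (unique molecular identifiers, each standing for 1 captured RNA molecule). No mural cell shared its barcode with a cell of another library, although 28 cells of the series did. The doublet caller Scrublet marked 6 of the 492 cells. In the labels, P14 OIR rod-depleted library 2 carries the same run code as the P14 NORM rod-depleted library. The P17 NORM libraries share a run code that is given for no OIR library.

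The cells with at least 3 mural genes and those with exactly 2 differed in genes that the rule did not read. HIGD1B, a pericyte gene, was detected in 86.8% of the 318 cells with at least 3 genes and in 4.02% of the 174 cells with 2. ASPN, a small leucine-rich proteoglycan, averaged 12.5 per 10000 UMIs in the cells with at least 3 genes and 0.588 in those with 2, and ACTA2, smooth muscle actin, averaged 25.1 and 1.56. Among the rule genes, RGS5 averaged 260 and 23, KCNJ8 was detected in 71.7% and 4.02%, and ABCC9 in 60.4% and 2.30%. The rule counts these genes, so their gap follows from the split and is a description. Of the 2-gene cells, 82 (47.1%) had qualified through RGS5 with VTN.

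VTN encodes vitronectin and was not restricted to mural cells. In rod-marked cells (at least 5 of 11 rod genes) VTN was detected in 37.9% of cells from rod-depleted retina, at a median of 1011.5 UMIs. RGS5 was detected in 4.6% of the same cells and MGP in 0.794%. In the 2-gene cells of rod-depleted retina the summed level of the 11 rod genes was 193 and 3.83 per 10000 at P14 and 111 at P17 in OIR, against 241 at P17 in NORM. In those of whole retina it was 716 at P14 and 980 and 753 at P17 in OIR. The cells with at least 3 genes held at most 13.3 in the 5 rod-depleted libraries and at most 17.4 in the whole-retina libraries measured. HIGD1B, ASPN and ACTA2 bear out the name mural in the cells with at least 3 genes. In the 2-gene cells these genes were rarely found and rod RNA was high in most of the 7 libraries measured, so the markers do not bear out the name there. Most comparisons below rest on the cells with at least 3 genes.

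Just outside the rule, 3708 cells had exactly 1 mural gene, 102 had at least 2 but also RLBP1, and 23 also had at least 2 endothelial genes. RGS5 averaged 2.88 per 10000 in the cells with 1 gene, against 1.23 in all remaining cells. VTN averaged 10.8 in those cells, above the 9.47 of the 2-gene cells.

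Beyond the rule genes, the profile was that of contractile, matrix-building cells. Among the 25 genes with the largest ratio of mural to other cells were ACTA2, MYL9, TPM2, TAGLN and CALD1, which build or regulate actin filaments, and COL4A1 and COL3A1, which are collagen chains. ACTA2 averaged 25.1 per 10000 in the cells with at least 3 genes, against 0.163 in endothelial cells and 0.127 in all other cells. HIGD1B averaged 22.1, against 0.0352 in endothelial cells and 0.0735 in other cells. ASPN averaged 12.5, against no UMI in the 194 endothelial cells and 0.0347 in other cells. COL4A1 was shared with the endothelium, at 33.1 in mural and 20.9 in endothelial cells. Of 14 fibroblast-list genes, 11 were detected in the cells with at least 3 mural genes, and LUM, PDGFRA and DPT had no UMI there. The list summed to 20.6 per 10000 in these cells, against 1.30 in all other cells. The endothelial genes CLDN5 and PECAM1 averaged 0.0594 and 0.0386 in the cells with at least 3 mural genes. The rule limited both genes, so these low values follow from the selection and are a description. The 14 endothelial-list genes summed to 10.9 per 10000 in the cells with at least 3 mural genes. They summed to 5.15 in all other cells, which include the endothelial cells.

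**Figure D1:**
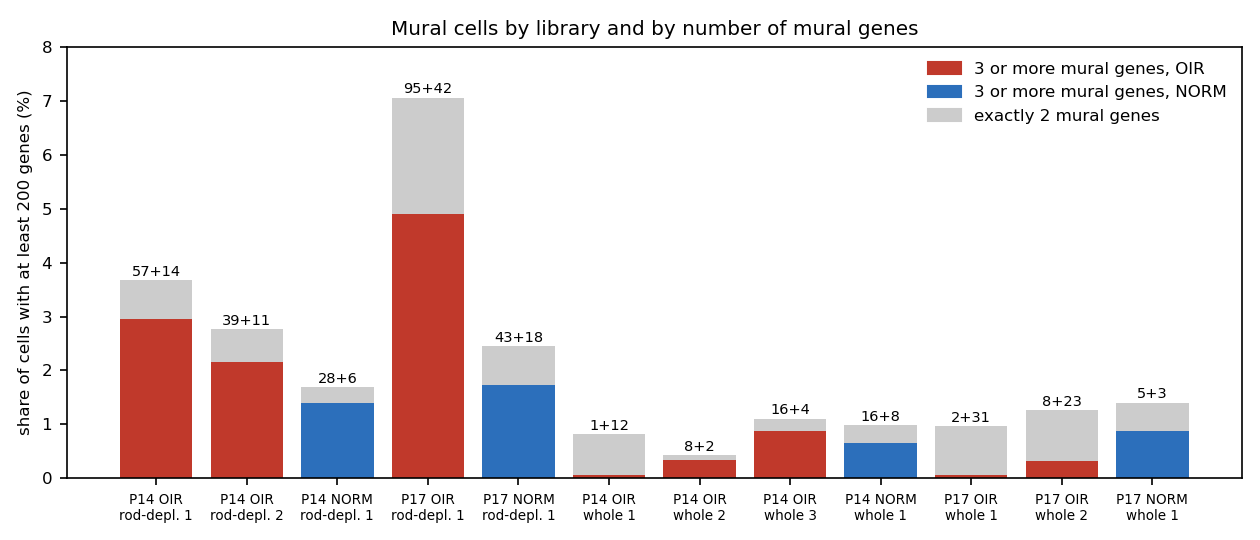
Share of cells with at least 200 genes (y axis, %) that met the mural rule in each library (x axis), split into cells with at least 3 mural genes (red OIR, blue NORM) and with exactly 2 (grey). The numbers above the bars are cells with at least 3 genes plus cells with 2; P17 OIR rod-depleted is the highest bar at 7.06%, and 31 of the 33 cells in P17 OIR whole-retina library 1 had only 2 genes.

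Mural cells made up a larger share of rod-depleted than of whole retina. The share was 3.53% ± 2.10 in rod-depleted libraries (SD, n = 5) and 0.997% ± 0.317 in whole-retina libraries (SD, n = 7), and an exact two-sided permutation test within age and oxygen group gave p = 0.00833, the smallest that its 120 arrangements allow. For cells with at least 3 genes the shares were 2.62% ± 1.40 and 0.459% ± 0.353 over the same libraries. Within the rod-depleted fraction the shares were 3.68% and 2.76% at P14 and 7.06% at P17 in OIR, against 1.69% at P14 and 2.45% at P17 in NORM. In whole retina they were 0.817%, 0.431% and 1.11% at P14 and 0.968% and 1.26% at P17 in OIR, against 0.985% at P14 and 1.41% at P17 in NORM. OIR lay above NORM in every rod-depleted library of the same age, whereas in whole retina the groups overlapped. RGS5 was also detected in 18.7% and MGP in 7.15% of the non-mural cells of P17 OIR rod-depleted. In the other rod-depleted libraries these ran from 5.43% to 7.42% and from 1.56% to 3.13%. In whole retina they ran from 1.60% to 3.13% and from 0.112% to 0.535%. VTN ran from 0.682% to 7.86% in rod-depleted and from 7.75% to 29.6% in whole retina. The part of such RNA in the shares was not tested. Over all 12 libraries the difference was not established: 2.26% ± 2.23 in OIR (SD, n = 8) and 1.63% ± 0.616 in NORM (SD, n = 4), exact two-sided permutation p = 0.653. Without P17 OIR rod-depleted the sign turned, with a difference of -0.0571 percentage points.

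For gene comparisons, the value of a library is the mean over its mural cells of UMIs per 10000 of the cell, and differences are log2(value + 0.2) of OIR minus NORM from limma with Benjamini-Hochberg adjustment, past the threshold below an adjusted p of 0.05. Libraries with at least 20 cells entered. Over all 492 cells, 9 libraries entered, and 9 of 7778 genes (0.116%) passed, 4 higher (0.0514%) and 5 lower (0.0643%) in OIR, with 670 at an unadjusted p below 0.05. The higher genes were TOP2A, PRC1, 2810417H13RIK and S100A6, and the lower included ATP2A3, LAMA2 and the rule gene VTN. With at least 10 cells per library limma passed none (384 genes at an unadjusted p below 0.05). With summed UMIs in place of means over cells the split was 8 higher and 3 lower, and with quantile scaling 5 higher and 4 lower.

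With the 2-gene cells left out, 3 OIR and 2 NORM libraries remained, all rod-depleted, and 82 of 6795 genes (1.21%) passed, 48 higher (0.706%) and 34 lower (0.5%) in OIR, with 1039 at an unadjusted p below 0.05. That fit had 2 residual degrees of freedom. With at least 10 cells per library, which added a whole-retina library of each group at P14, 154 of 7029 genes (2.19%) passed. The OIR cells were read more deeply: their median was 2297 and 2956 UMIs at P14 and 2335 at P17, against 1002.5 at P14 and 1176 at P17 in NORM. The medians over all cells of these libraries were 979, 928 and 965.5 in OIR, against 995 and 1022 in NORM. Endothelial cells had 3033 and 3483 at P14 and 1703 at P17 in OIR, against 2028.5 at P14 and 1513.5 at P17 in NORM. After thinning each cell to 500 UMIs, 31 genes passed, 24 higher and 7 lower. Adjusted p-values below are from the 5 rod-depleted libraries, and values are from cells with at least 3 mural genes, unless stated.

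Among the highest-ranked differences were those of small cytoplasmic proteins, along with FN1 and TUBB5, which are described below. S100A6 (chr3:90612882-90624181, plus strand, GRCm38), a calcium-binding protein of the S100 family, had 13 and 28.8 per 10000 at P14 and 10.6 at P17 in OIR, against 2.27 at P14 and 1.93 at P17 in NORM. Every OIR library lay above every NORM library, and the whole-retina pair at P14 repeated the pattern with 18.7 in OIR and 2.49 in NORM. The log2 difference was 2.71 ± 0.34 (SE, adjusted p = 0.000219). In UMIs, S100A6 took 928 of 548720 in OIR and 25 of 98341 in NORM, a ratio of 6.65 with a 95% counting interval of 4.48 to 10.3.

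LGALS1, the sugar-binding galectin-1, showed the same separation. It had 26.4 and 39.6 per 10000 at P14 and 26.7 at P17 in OIR, against 6.75 at P14 and 10.8 at P17 in NORM, a log2 difference of 1.82 ± 0.28 (SE, adjusted p = 0.000838). FABP5, which binds fatty acids, had 10.8 and 10.8 at P14 and 16.5 at P17 in OIR, against 2.46 at P14 and 4.70 at P17 in NORM (1.93 ± 0.30, adjusted p = 0.00121). These 3 genes, with FN1 and SMC4, passed in each of the 5 fits that left out 1 library and in each of the 10 other alternatives. In the pair that shares a run code, both of whose libraries are in the fit, the log2 differences were 3.55 for S100A6, 2.52 for LGALS1 and 2.06 for FABP5.

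**Figure D2:**
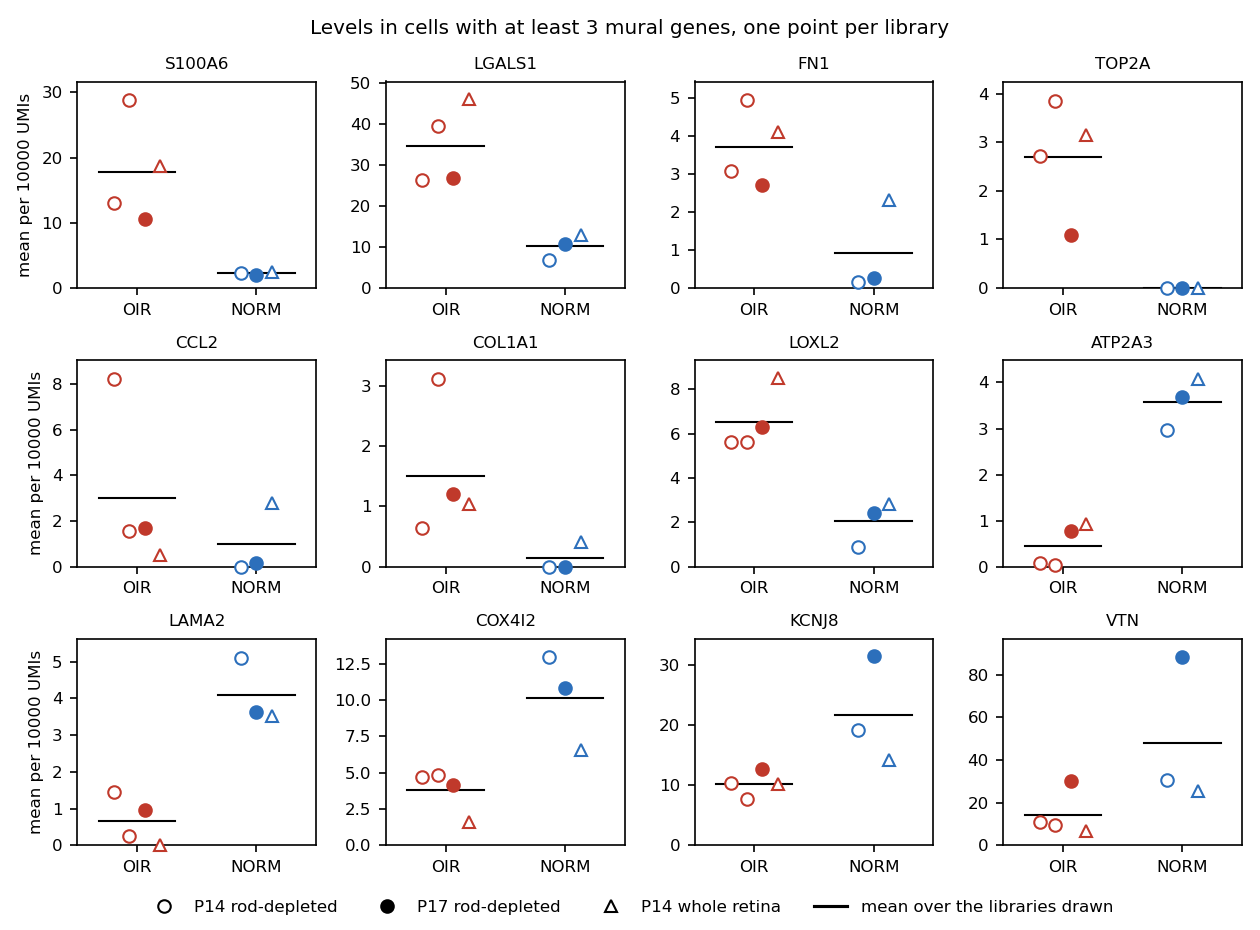
Mean level per 10000 UMIs (y axis) of 12 genes in cells with at least 3 mural genes, 1 point per library, OIR in red and NORM in blue; circles are rod-depleted libraries (open P14, filled P17), triangles P14 whole retina, and bars the mean over the points drawn. For S100A6 the OIR points run from 10.6 to 28.8 above NORM points of 1.93 to 2.49, and for ATP2A3 the OIR points run from 0.0449 to 0.932 below NORM points of 2.98 to 4.07; for CCL2 the groups overlap.

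Genes of cell division formed the second group. Of 15 cell cycle genes listed, all 15 were tested and 5 passed (UBE2C, TYMS, BIRC5, HMGB2 and TOP2A). Of the 15, 10 had no UMI in the NORM libraries of the fit and could meet the filter on low values only through OIR, so their direction and median give no support. TOP2A (chr11:98992943-99024189, minus strand), the topoisomerase that untangles DNA before chromosomes separate, had 2.72 and 3.85 per 10000 at P14 and 1.08 at P17 in OIR, and no UMI in either NORM rod-depleted library (3.49 ± 0.56, adjusted p = 0.00132). OIR whole-retina library 3 at P14 held 3.15, against none in the NORM whole-retina library of that age. Pooled over the rod-depleted libraries, TOP2A had 153 UMIs in OIR and 0 in NORM. With 3 UMIs over the group as the floor this is at least 9.14-fold. Such a bound leaves out library-to-library spread and is a description.

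PRC1, which bundles the microtubules of the dividing spindle, had 1.71 and 2.02 at P14 and 1.80 at P17 in OIR and none in NORM (3.35 ± 0.56, adjusted p = 0.00166; at least 6.93-fold). As for TOP2A, the PRC1 call and its fold bound give no support, since only OIR could carry the gene past the filter. HMGB2, a chromatin protein, had 3.36 and 4.34 at P14 and 1.52 at P17 in OIR, against 0.144 at P14 and 0.292 at P17 in NORM (2.80 ± 0.51, adjusted p = 0.00346). SMC4, a condensin subunit, had 2.75 and 5.81 at P14 and 3.23 at P17 in OIR, against 0.492 at P14 and 0.616 at P17 in NORM (2.38 ± 0.45, adjusted p = 0.00562). The P14 OIR libraries lay above the P17 OIR library for TOP2A and HMGB2, while PRC1 was level across the 3.

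TUBB5, a beta-tubulin of spindle and cytoskeleton, had 10.4 and 11.6 at P14 and 6.67 at P17 in OIR, against 0.728 at P14 and 2.31 at P17 in NORM (2.67 ± 0.40, adjusted p = 0.000838). The shallower NORM cells limit what a 0 can show. After thinning, SMC4 (adjusted p = 0.00275) and TUBB5 (adjusted p = 6.87e-05) still passed, while TOP2A (adjusted p = 0.0855), HMGB2 (adjusted p = 0.226) and PRC1 (adjusted p = 0.449) did not, at log2 differences of 3.59, 2.69 and 2.81. UBE2C, TYMS and BIRC5 were lost too (adjusted p = 0.387, 0.449 and 0.410). Without the P14 NORM rod-depleted library the difference was 1.45 for TUBB5 (adjusted p = 0.0821) and 1.81 for HMGB2 (adjusted p = 0.141), and both calls were lost. So were those of UBE2C (2.05, adjusted p = 0.215), TYMS (2.27, adjusted p = 0.147) and BIRC5 (1.59, adjusted p = 0.446). MKI67, the proliferation marker, had a difference of 2.44 ± 0.63 that did not pass (adjusted p = 0.0519), and neither did that of CDK1 (2.33 ± 0.61, adjusted p = 0.0577).

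Promoters of division genes often carry a cell cycle homology element, TTTGAA in its core, close to the start of transcription. The 250 bases before the start of TOP2A, UBE2C, HMGB2 and PRC1 are shown because these 4 genes passed and hold the motif. The windows are from RefSeq on GRCm38.p6, 5′ to 3′ on the strand of the gene, with TTTGAA or its reverse complement TTCAAA in capitals.
TOP2A (chr11:99024190-99024439, minus strand): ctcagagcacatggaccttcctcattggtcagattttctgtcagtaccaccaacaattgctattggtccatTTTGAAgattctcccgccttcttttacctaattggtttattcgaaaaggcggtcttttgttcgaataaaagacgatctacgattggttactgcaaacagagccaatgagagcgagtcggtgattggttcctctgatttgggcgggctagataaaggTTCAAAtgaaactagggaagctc
UBE2C (chr2:164769679-164769928, plus strand): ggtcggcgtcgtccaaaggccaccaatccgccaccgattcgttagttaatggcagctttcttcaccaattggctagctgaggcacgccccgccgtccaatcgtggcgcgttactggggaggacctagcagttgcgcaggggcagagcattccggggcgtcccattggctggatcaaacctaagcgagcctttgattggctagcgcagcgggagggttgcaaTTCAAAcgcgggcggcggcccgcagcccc
HMGB2 (chr8:57511593-57511842, plus strand): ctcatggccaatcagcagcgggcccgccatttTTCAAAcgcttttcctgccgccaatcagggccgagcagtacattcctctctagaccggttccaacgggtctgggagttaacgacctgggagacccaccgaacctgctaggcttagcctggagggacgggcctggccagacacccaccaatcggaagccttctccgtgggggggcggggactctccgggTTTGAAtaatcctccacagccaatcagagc
PRC1 (chr7:80294226-80294475, plus strand): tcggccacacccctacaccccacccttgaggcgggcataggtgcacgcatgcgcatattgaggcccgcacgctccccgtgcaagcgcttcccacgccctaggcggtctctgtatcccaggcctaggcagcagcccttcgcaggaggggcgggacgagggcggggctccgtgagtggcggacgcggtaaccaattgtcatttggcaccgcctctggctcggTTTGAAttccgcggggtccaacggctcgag
Of 18 division genes sought, 16 had a window in the RefSeq table and 8 of them held TTTGAA on either strand. Among the 7 that passed and had a window, BIRC5, TYMS and 2810417H13RIK did not hold it. The motif occurs in 18.3% of 27025 genes with a window. The match centred nearest to the start lies 20 bases before it in TOP2A, 26 in UBE2C, 27 in HMGB2 and 27 in PRC1. For PRC1 this holds for the window shown. The window of its other RefSeq start (chr7:80294201-80294450) holds no match. A match describes the letters of the window and is not a site at which a factor was shown to bind.

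The division genes were concentrated in a minority of cells. Cells with UMIs of at least 2 of 8 mitotic genes (MKI67, TOP2A, CCNB1, CCNB2, CDK1, BIRC5, UBE2C, CENPA) made up 59 of 223 OIR mural cells (26.5%, exact 95% interval 20.8 to 32.8), against 1 of 92 NORM mural cells (1.09%, 0.0275 to 5.91), in libraries with at least 5 such cells. These genes were picked with their values known, so the shares are a description. The intervals cover counting error only.

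In OIR at P14 the mitotic share was 17 of 57 (29.8%) and 17 of 39 (43.6%) in the rod-depleted libraries, and at P17 it was 16 of 95 (16.8%). In NORM rod-depleted retina it was 0 of 28 at P14, which allows up to 10.7%, and 0 of 43 at P17, which allows up to 6.98%. Both P14 OIR libraries lay above that at P17. Whole retina gave 2 of 8 and 6 of 16 in OIR at P14, against 1 of 16 in NORM at P14, and 1 of 8 in OIR at P17, against 0 of 5 in NORM at P17. Rod-marked cells, which do not divide at these ages, reached this mark in 6 of 6822 OIR cells (0.0880%, median 1034.5 UMIs) and 1 of 1654 NORM cells (0.0605%, median 571.5 UMIs).

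Depth differed between the groups, and thinning kept the direction. At 500 UMIs per cell, 45 of 220 OIR mural cells (20.5%) and 1 of 77 NORM mural cells (1.30%) still held a UMI of at least 1 mitotic gene. The NORM cell was 1 of 21 in the P14 rod-depleted library (4.76%). Rod-marked cells held one in 0.683% of OIR and 0.505% of NORM cells at that depth. Endothelial cells moved the same way, with 22 of 77 OIR cells (28.6%) and 5 of 109 NORM cells (4.59%) at full depth.

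**Figure D3:**
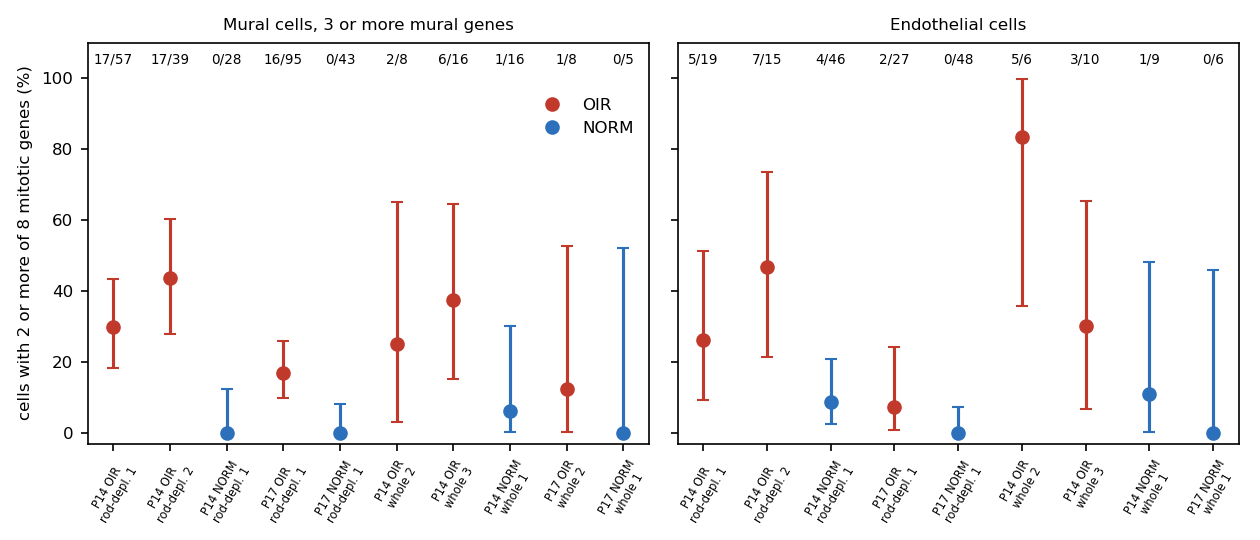
Share of cells with UMIs of at least 2 of 8 mitotic genes (y axis, %) by library (x axis) in mural cells with at least 3 mural genes (left) and endothelial cells (right); bars are exact 95% intervals and fractions are cells. In mural cells the OIR rod-depleted libraries stand at 16.8% to 43.6% with NORM rod-depleted at 0; in endothelial cells P17 OIR rod-depleted is at 7.41%.

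Genes outside the rule were also found in the mitotic OIR cells. Over all OIR libraries there were 60 mitotic cells, with a median of 3995.5 UMIs, and 166 other OIR mural cells, with 2216.5. The rule admitted both through mural genes and barred all but 1 endothelial gene, so neither is a result about them. Scrublet marked none of the 60. After thinning, HIGD1B averaged 14.9 per 10000 in mitotic and 21.6 in other OIR mural cells, and ASPN 4.41 and 11.7. ACTA2 stood at 25.4 and 26.2, and FN1 at 3.05 and 3.66. LGALS1 stood higher in mitotic cells, at 43.7 and 24.1. These means over cells show lower HIGD1B and ASPN in mitotic cells and near-equal ACTA2, and they were not tested.

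Matrix and basement membrane genes moved in both directions. Of 26 listed, 23 were tested, 3 passed as higher and 1 as lower, with 16 positive and 7 negative differences and a median of 0.49 against 0.082 over all genes. FN1 (chr1:71585520-71653200, minus strand), fibronectin, had 3.08 and 4.95 per 10000 at P14 and 2.71 at P17 in OIR, against 0.150 at P14 and 0.252 at P17 in NORM (3.18 ± 0.48, adjusted p = 0.000838). In whole retina at P14 OIR library 3 held 4.11 and NORM held 2.33, so the gap was narrower there. SERPINE2, an inhibitor of thrombin and plasminogen activators, had 34.1 and 25.3 at P14 and 39.3 at P17 in OIR, against 16.3 at P14 and 10.8 at P17 in NORM (1.28 ± 0.26, adjusted p = 0.0128).

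COL18A1, the basement membrane collagen whose end fragment is endostatin, had 1.18 and 3.50 at P14 and 1.73 at P17 in OIR, against 0.250 at P14 and 0.0744 at P17 in NORM (2.54 ± 0.55, adjusted p = 0.0188). The NORM values of COL18A1 averaged below the filter mean of 0.2, so it reached that mean only through OIR and its call gives no support. In whole retina at P14 COL18A1 was level, at 2.86 in OIR and 3.02 in NORM. LAMA2 (chr10:26980036-27619758, minus strand), a laminin chain, went the other way, with 1.46 and 0.265 at P14 and 0.947 at P17 in OIR, against 5.10 at P14 and 3.62 at P17 in NORM (-2.23 ± 0.51, adjusted p = 0.0253). The most abundant members did not pass: SPARC averaged 66.0 ± 8.92 in OIR (SD, n = 3) and 64.5 ± 10.3 in NORM (SD, n = 2), and COL4A1 averaged 29.6 ± 4.52 in OIR and 22.9 ± 9.82 in NORM.

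COL1A1, a fibrillar collagen chain, had 0.641 and 3.11 at P14 and 1.20 at P17 in OIR and no UMI in NORM rod-depleted retina, 104 UMIs against 0 and at least 6.21-fold higher (2.95 ± 0.64, adjusted p = 0.0188). With no UMI there it could meet the filter on low values only through OIR, so its call and its fold bound give no support. No other of the 7 tested fibroblast-list genes passed, among them COL1A2 (0.75 ± 0.32, adjusted p = 0.266). After thinning FN1 passed (adjusted p = 0.00546), and SERPINE2, COL18A1, LAMA2 and COL1A1 did not (adjusted p of 0.256, 0.169, 0.449 and 0.441). The thinned log2 differences of these genes that did not pass were 0.97, 3.50, -1.84 and 2.98, in that order. COL18A1 was also lost without P14 OIR library 2 (log2 difference 2.22), and SERPINE2 without either P17 library (0.85). LAMA2 was lost without P14 NORM (-1.74) or P14 OIR library 2 (-1.71).

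Most pericyte genes had lower values in OIR. Of the 15 pericyte genes outside the rule, 13 had a negative difference and 2 passed, with a median of -0.59 against 0.082 over all genes. Cells were admitted before thinning, and NORM medians were 1002.5 and 1176 UMIs, against 2297 to 2956 in OIR. A shallower cell needs a larger share of mural RNA to show 3 mural genes. The part of this in the differences of pericyte and rule genes was not tested. COX4I2 (chr2:152754173-152765037, plus strand), an isoform of a respiratory chain subunit, had 4.67 and 4.83 per 10000 at P14 and 4.15 at P17 in OIR, against 13 at P14 and 10.8 at P17 in NORM. The OIR libraries lay close together and below NORM, at 4.55 ± 0.355 (SD, n = 3) against 11.9 ± 1.5 (SD, n = 2), and COX4I2 passed (-1.38 ± 0.31, adjusted p = 0.0229; after thinning 0.0148). It was lost without P14 NORM (-1.34, adjusted p = 0.16) and without P14 OIR library 1 (-1.37). ATP13A5, a transporter gene used as a brain pericyte marker, also passed (-2.51 ± 0.63, adjusted p = 0.0467) and did not after thinning (-2.18, adjusted p = 0.449). Its log2 difference shrank to -1.16 without P14 NORM.

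HIGD1B had 22.3 and 14.1 at P14 and 22.2 at P17 in OIR, against 30.5 at P14 and 28.3 at P17 in NORM, and did not pass (-0.59 ± 0.26, adjusted p = 0.266). Each of the 8 rule genes also had a negative difference, which is given as a description. KCNJ8 had 10.4 and 7.67 at P14 and 12.7 at P17 in OIR, against 19.2 at P14 and 31.6 at P17 in NORM. VTN had 10.7 and 9.51 at P14 and 30.2 at P17 in OIR, against 30.7 at P14 and 88.3 at P17 in NORM. For these genes no OIR library reached the lower NORM library. RGS5 lay closer, at 252 and 150 at P14 and 260 at P17 in OIR, against 333 at P14 and 283 at P17 in NORM. MGP stood at 114 and 120 at P14 and 103 at P17 in OIR, against 134 at P14 and 137 at P17 in NORM.

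ATP2A3, a calcium pump of the endoplasmic reticulum, had 0.0779 and 0.0449 at P14 and 0.776 at P17 in OIR, against 2.98 at P14 and 3.68 at P17 in NORM (-2.91 ± 0.55, adjusted p = 0.00613). RGS3, a relative of RGS5, had 0 and 0.0857 at P14 and 0.261 at P17 in OIR, against 4.16 at P14 and 1.62 at P17 in NORM (-3.24 ± 0.62, adjusted p = 0.00635). Both were lost after thinning (adjusted p = 0.449 each), at log2 differences of -2.74 for ATP2A3 and -2.38 for RGS3. Both were also lost without P14 NORM, where the log2 differences were -1.99 for ATP2A3 and -1.98 for RGS3. Of 24 genes for vascular tone 15 were tested, and none outside the rule passed, with 5 positive and 10 negative differences that include those of the rule genes.

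No contractile gene passed in the rod-depleted libraries. Of 15 listed, 12 were tested, with 8 positive and 4 negative differences and a median of 0.10. CALD1 averaged 42.5 ± 10.2 in OIR (SD, n = 3) and 41.8 ± 1.11 in NORM (SD, n = 2), and MYL9 averaged 27.8 ± 0.410 in OIR and 41.2 ± 17.1 in NORM. ACTA2 had 22.5 and 45.4 at P14 and 28.4 at P17 in OIR, against 19.4 at P14 and 18.3 at P17 in NORM (0.68 ± 0.27, adjusted p = 0.23), and the groups did not overlap. In whole retina at P14 it had 43.7 in OIR and 2.08 in NORM, and with those libraries included it passed (1.76 ± 0.33, adjusted p = 0.000294). The ACTA2 call was made only with these whole-retina libraries added.

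Signalling and stress lists gave single genes. ID3, a target of bone morphogenetic protein signalling, had 19.7 and 23.1 per 10000 at P14 and 28.8 at P17 in OIR, against 14.3 at P14 and 3.96 at P17 in NORM (1.53 ± 0.34, adjusted p = 0.0229). It was the only one of 16 tested PDGF, TGF-beta, Notch and angiopoietin genes to pass, and it was lost without either P17 library (0.57) and after thinning (adjusted p = 0.104). LOXL2, a collagen cross-linking enzyme induced by hypoxia, had 5.63 and 5.63 at P14 and 6.30 at P17 in OIR, against 0.892 at P14 and 2.4 at P17 in NORM (1.95 ± 0.38, adjusted p = 0.0068; after thinning 0.0192). Its call was lost without P14 NORM (1.32, adjusted p = 0.215).

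Of 18 tested hypoxia genes LOXL2 passed as higher and COX4I2 as lower, and the abundant members ALDOA (-0.38, adjusted p = 0.562) and LDHA (0.49, adjusted p = 0.466) did not pass. None of 14 tested glycolysis genes, 24 respiratory chain genes or 10 interferon and antigen presentation genes passed, with median differences of -0.10, 0.11 and 0.49.

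The chemokine genes CCL2 and CXCL1 passed among 11 tested inflammatory genes. CXCL1, which attracts neutrophils, had 21.1 and 5.97 at P14 and 6.63 at P17 in OIR, against 2.85 at P14 and 0.700 at P17 in NORM (2.34 ± 0.42, adjusted p = 0.00346; after thinning 1.32e-06). CCL2, which attracts monocytes, had 8.21 and 1.58 at P14 and 1.68 at P17 in OIR, against 0 at P14 and 0.178 at P17 in NORM (3.43 ± 0.61, adjusted p = 0.00339). Both NORM values lay below the filter mean of 0.2. CCL2 could thus meet the filter only through OIR, and its call gives no support. CCL2 was not repeated in whole retina at P14, with 0.503 in OIR and 2.77 in NORM. With those libraries it did not pass (1.78, adjusted p = 0.107), nor without P14 OIR library 1 (2.73). Among 17 tested immediate early genes only IER3 passed (2.06 ± 0.43, adjusted p = 0.0128), and it did not after thinning (adjusted p = 0.484) or without P14 NORM (1.07, adjusted p = 0.402). SOD3, the secreted superoxide dismutase, was the only one of 9 tested metallothionein and oxidative stress genes to pass. It had 2.1 and 1.16 at P14 and 5.33 at P17 in OIR, against 9.45 at P14 and 8.56 at P17 in NORM (-1.68 ± 0.40, adjusted p = 0.0341; after thinning 0.329). Without P14 NORM the call was lost (-0.66, adjusted p = 0.657). In whole retina at P14 SOD3 was level, at 0.509 in OIR and 0.509 in NORM, and with those libraries it did not pass (-1.18, adjusted p = 0.145).

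RNA of other cell types differed between the groups as well. In the cells with at least 3 mural genes, summed bipolar markers ran from 1.02 to 10.3 per 10000 over 4 OIR libraries, against 8.66 to 27.8 over 3 NORM libraries. Rod markers ran from 0.571 to 14.1 in OIR, against 6.11 to 17.4 in NORM, and Müller glia markers from 30.6 to 40.3 in OIR, against 15.4 to 28.8 in NORM. Endothelial markers ran from 6.25 to 11.7 in OIR, against 9.41 to 18.2 in NORM. Rod, endothelial and bipolar sums overlapped between the groups, while every OIR library lay above every NORM library for the Müller sum. VIM made up 31.6 of the 40.3 in P14 OIR rod-depleted library 2 and 11.0 of the 28.8 in the P14 NORM rod-depleted library. Of the 7 Müller genes tested in rod-depleted libraries, 2 had a positive and 5 a negative difference, with a median of -0.17. The order of the Müller sum was thus not that of most of its tested genes. Among the genes that passed were SNAP25, a synaptic protein gene (-3.27 ± 0.52, adjusted p = 0.00121), and the bipolar gene PCP2 (-1.76, adjusted p = 0.0188). Of the Müller list VIM (1.30 ± 0.26, adjusted p = 0.00858) and GLUL (-2.28 ± 0.52, adjusted p = 0.0254) passed. Of the endothelial list 7 of 14 genes were tested and PLTP, a phospholipid transfer protein, passed (-1.99 ± 0.46, adjusted p = 0.0253). All 5 calls were lost after thinning, with adjusted p of 0.0854 for SNAP25, 0.499 for PCP2, 0.346 for VIM, 0.449 for GLUL and 0.246 for PLTP. All 5 were also lost without P14 NORM, where the log2 differences were -2.35 for SNAP25 (adjusted p = 0.123), -1.45 for PCP2 (adjusted p = 0.229), 1.07 for VIM (adjusted p = 0.182), -0.73 for GLUL (adjusted p = 0.735) and -1.81 for PLTP (adjusted p = 0.239). Astrocyte, lens and pigment markers had no gene above the filter. The part of this RNA in the differences above was not tested.

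Within the pair that shares a run code the called genes given here kept their direction. Both libraries of the pair were in the fit that made the calls, so the pair is no independent check. The log2 difference of P14 OIR library 2 minus P14 NORM was 4.34 for TOP2A, 3.88 for FN1, 3.67 for TUBB5, 3.04 for COL18A1, 2.42 for LOXL2, 1.02 for CXCL1, 0.69 for ID3 and 0.63 for SERPINE2. It was -3.70 for ATP2A3, -3.51 for LAMA2 and -1.39 for COX4I2. A single pair has no replicate check.

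Mural and endothelial cells of the same libraries shared part of the OIR difference and parted in others. Endothelial cells were those with at least 2 of the 4 endothelial genes, at most 1 mural gene and no RLBP1. The difference of differences was taken over 6 libraries with at least 10 cells of both, and 11 of 7394 genes (0.149%) passed, 8 (0.108%) with a higher OIR difference in mural cells and 3 (0.0406%) with a lower one. That fit had 2 residual degrees of freedom. Its only whole-retina library, P14 OIR library 3, is taken up by the fraction term, so the contrast rests on the 5 rod-depleted libraries, 2 of them NORM. Over all 492 mural cells 6 genes (0.0784%) passed. The OIR effect within endothelial cells passed for 18 genes (0.255%). Mural values below are from the 7 libraries with at least 10 mural cells, 1 more than the 6 behind the difference, so the printed values do not subtract to it. FN1 rose in mural cells (2.46 ± 0.46) and stood at 0.17 ± 0.38 in endothelial cells, a difference of 3.01 ± 0.51 (adjusted p = 2.28e-05). In endothelial cells FN1 had 11.4, 16.9 and 13.5 per 10000 in OIR rod-depleted libraries, against 12.9 and 11.3 in NORM, so that OIR mural levels of 2.71 to 4.95 stayed below both.

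TUBB5 had a mural difference of 2.37 ± 0.37 and an endothelial one of 0.03 ± 0.43 (2.64 ± 0.48 between them, adjusted p = 0.000128). ID3 went in opposite directions, 1.36 ± 0.30 in mural and -0.95 ± 0.42 in endothelial cells (2.48 ± 0.40, adjusted p = 8.56e-06), and the endothelial values include 23.2 per 10000 in P17 NORM. BSG, basigin, a transmembrane glycoprotein of the blood-brain barrier, had 0.60 ± 0.37 in mural and -1.54 ± 0.30 in endothelial cells (2.26 ± 0.37, adjusted p = 8.56e-06). THY1, WDR1 and RPLP1 also stood higher in the mural contrast, and DLC1, PRSS23 and MALAT1 lower. MGP completes the 11, but it is a rule gene: endothelial MGP was 19.7 per 10000 in P17 NORM, against 0 to 1.29 in the other 5 libraries.

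S100A6 was higher in OIR in both cell types, 2.74 ± 0.33 in mural and 3.64 ± 0.68 in endothelial cells, and the difference between them did not pass (-0.93 ± 0.61, adjusted p = 0.704). TOP2A had 3.67 ± 0.56 in mural and 1.47 ± 0.69 in endothelial cells, which did not pass either (2.03 ± 0.82, adjusted p = 0.427). After thinning none of the differences between the cell types passed in limma, with 335 genes at an unadjusted p below 0.05, and the median over all genes moved to 0.397, against 0.127 before thinning.

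**Figure D4:**
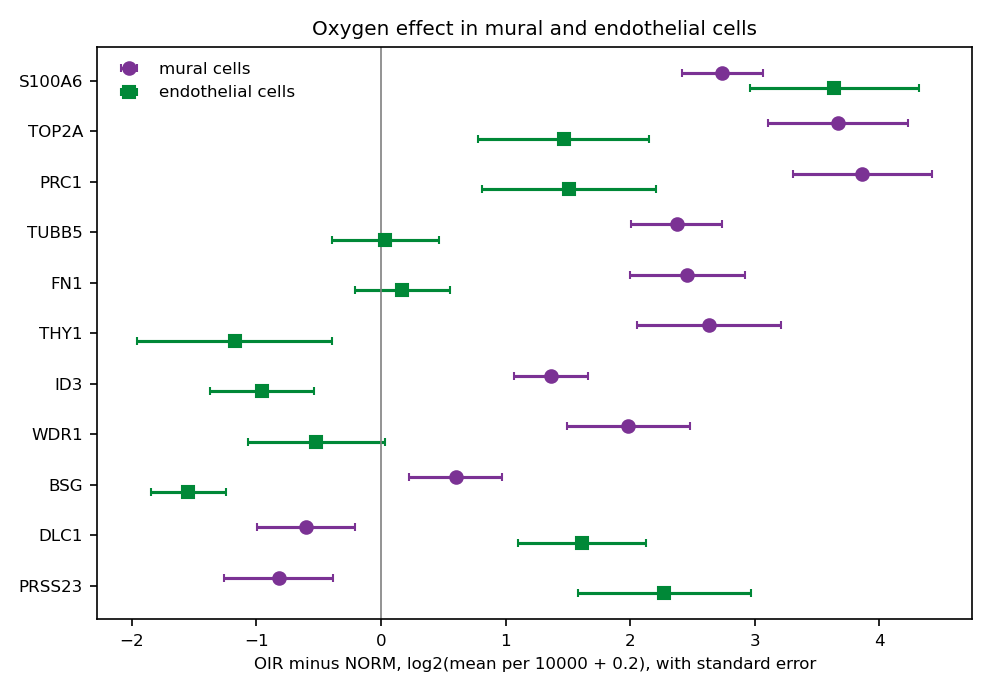
OIR minus NORM difference (x axis, log2 of the mean per 10000 plus 0.2, with standard error) of 11 genes (y axis) in mural cells with at least 3 mural genes (purple circles) and endothelial cells (green squares). S100A6 is right of 0 in both, TUBB5 and FN1 are right of 0 in mural cells and near 0 in endothelial cells, which come from 7 mural and 6 endothelial libraries, and BSG is left of 0 in endothelial cells.

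More genes passed between P17 and P14 over all 492 cells than in cells with at least 3 mural genes, but the libraries changed as well as the cells. The counts rest on 9 and on 5 libraries, and the 5 rod-depleted libraries alone gave 9 genes with the 2-gene cells kept. Over all 492 cells, 57 of 7778 genes (0.733%) passed between P17 and P14, 42 higher (0.54%) and 15 lower (0.193%) at P17, 89 higher and 17 lower with summed UMIs, and 18 higher and 24 lower after thinning, but those higher at P17 included rod and neuronal genes. Among them GNGT1, a transducin subunit of rods, had a difference of 2.35 ± 0.46 (adjusted p = 0.0139). GNGT1 ran from 7.53 to 161 per 10000 over the 4 P17 libraries, against 0.502 to 41.8 over the 5 at P14. GNAT1, another transducin subunit of rods, SNAP25 and TRPM1 were also higher at P17. With at least 10 cells per library 3 genes (0.0388%) passed.

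Vascular genes were among those lower at P17 over all 492 cells. APOLD1, an early response gene of endothelial cells, had -3.27 ± 0.53 (adjusted p = 0.0029) and COL4A2, a type IV collagen chain, -1.83. CXCL1 had -2.72 (adjusted p = 0.0117). The share of 2-gene cells differed by library, reaching 31 of 33 in P17 OIR whole-retina library 1, and its part in these calls was not tested.

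In cells with at least 3 mural genes 5 of 6795 genes (0.0736%) passed between P17 and P14, 1 higher (0.0147%) and 4 lower (0.0589%), against 6 higher and 4 lower with summed UMIs. The 1 gene counted as higher at P17 is VTN, whose values helped choose the cells, so it is no result. RPS26, RPL39, RPLP1 and RPS2, which encode ribosomal proteins, were lower. RPS26 had 8.54 per 10000 in OIR and 5.82 in NORM at P17, against 26.9 and 33.2 in OIR and 15.7 in NORM at P14 (-1.62 ± 0.27, adjusted p = 0.0074). Ribosomal protein genes have near-identical copies, so the assignment of their reads is uncertain, and after thinning RPS26, RPL39 and RPLP1 did not pass.

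No gene showed a different OIR effect at P17 than at P14 over all 492 cells (359 at an unadjusted p below 0.05). In cells with at least 3 mural genes and at least 10 cells per library, JUNB, an immediate early transcription factor, was the only one of 7029 genes (0.0142%) to pass, with a difference of 3.31 ± 0.59 between the effects (adjusted p = 0.0183). JUNB had 19.4 per 10000 in OIR against 2.37 in NORM at P17. At P14 it had 11.1, 10.8 and 14.9 in OIR, against 13.4 and 21.3 in NORM. OIR lay above NORM at P17 and overlapped NORM at P14. Each group had 1 library at P17, which is assumed to vary like the P14 libraries, and the fit had 2 residual degrees of freedom. The P17 NORM library carries a run code given for no OIR library, so run and oxygen cannot be told apart at P17.

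MGP (chr6:136872435-136875823, minus strand) and RGS5 (chr1:169655501-169695813, plus strand) were mostly found in the same cells. After thinning to 500 UMIs, a cell was called MGP-high when MGP had more UMIs than RGS5, and RGS5-high in the opposite case. Of 300 cells with at least 3 mural genes and enough UMIs, 34 were MGP-high, 241 RGS5-high and 25 tied, and 68 lay within 2 UMIs of a tie. RGS5 was present in 32 of the 34 MGP-high cells, and MGP in 225 of the 241 RGS5-high cells. Median depth before thinning was similar, at 2166.5 UMIs in MGP-high and 2044 in RGS5-high cells.

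**Figure D5:**
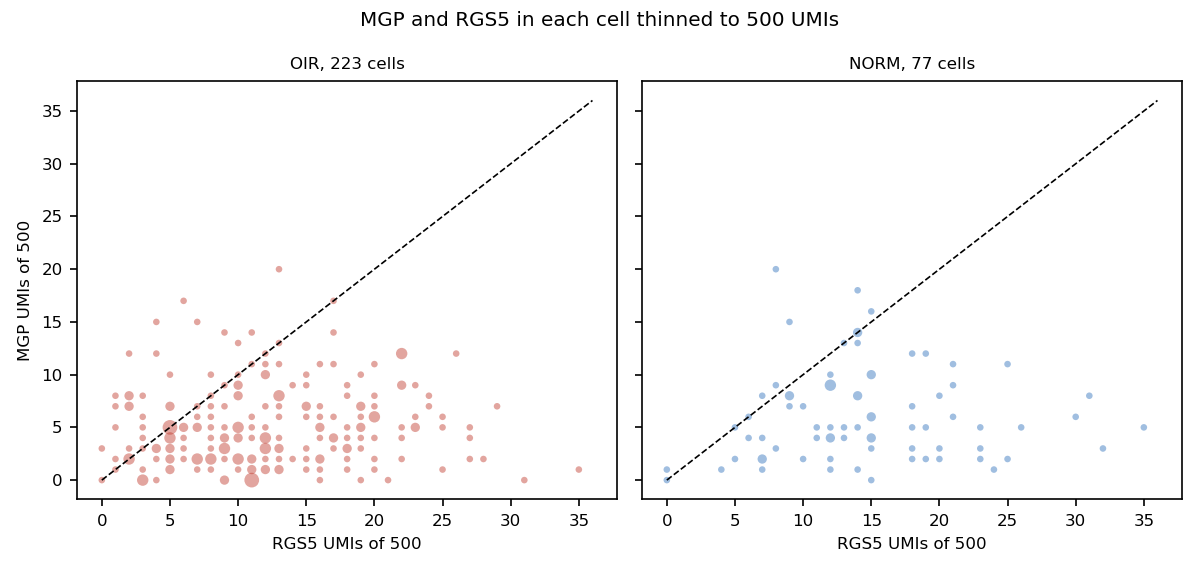
RGS5 UMIs (x axis) and MGP UMIs (y axis) of each cell with at least 3 mural genes thinned to 500 UMIs, OIR left and NORM right; larger points hold more cells and the dashed line marks equal UMIs. Most cells lie below the line and no gap divides the 34 MGP-high from the 241 RGS5-high cells.

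Of the 15 contractile genes 7 were higher in MGP-high cells, among them ACTA2 and TAGLN. ACTA2 averaged 57.1 per 10000 in MGP-high and 18.0 in RGS5-high cells, and TAGLN, transgelin, 17.6 and 7.47. Of the 15 pericyte genes outside the rule 4 were higher in MGP-high cells, among them MCAM at 10 in MGP-high and 8.63 in RGS5-high cells, while COX4I2 stood at 2.35 and 6.89. Of the rule genes, ABCC9 stood at 1.76 and 8.46, VTN at 13.5 and 34.6, and PDGFRB at 9.41 and 8.22. CALD1, at 31.2 and 48.6, did not follow ACTA2, and MYL9, at 25.9 and 28.9, and HIGD1B, at 20.6 and 23.2, were close. The 15 contractile genes summed to 199 in MGP-high and 159 in RGS5-high cells, a gap close to that of ACTA2 by itself, and the 15 pericyte genes outside the rule to 77.6 and 96.3. S100A6 averaged 28.2 in MGP-high and 9.13 in RGS5-high cells. These means over cells are a description with no test, since the classes were cut from measured RNA.

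P14 OIR rod-depleted library 2 gave 14 of the 34 MGP-high and 20 of the 241 RGS5-high cells. Within it ACTA2 averaged 74.3 in MGP-high and 26 in RGS5-high cells, and in the other libraries 45 and 17.3, so its order held in both. TAGLN kept its order more weakly within that library, at 8.57 and 6.0, against 24 and 7.60 in the others. ABCC9 was near equal within it, at 1.43 and 1.0, and apart in the others, at 2.0 and 9.14.

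The MGP-high share among all called mural cells was 16.0% ± 12.7 in OIR (SD, n = 6) and 9.31% ± 9.21 in NORM (SD, n = 3). It was taken over libraries with at least 10 called cells, with the 2-gene cells included. An exact two-sided permutation test gave p = 0.5, and its 12 arrangements could not go below 0.0833. P14 OIR rod-depleted library 2 stood at 41.5% (17 of 41, 95% Wilson interval 27.8 to 56.6), and without it the shares were 10.9% ± 2.94 in OIR and 9.31% ± 9.21 in NORM. In cells with at least 3 mural genes the shares were 18.7% ± 15.6 in OIR (SD, n = 4) and 8.41% ± 7.58 in NORM (SD, n = 3).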

How the data were processed

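Drop-seq captures single cells with barcoded beads and counts the 3′ ends of their RNA. The submitters' processing notes name bcl2fastq, STAR 2.4.0 and mm10; the strand setting is not stated there. The table that the authors deposited holds natural log values, ln(1 + UMIs / cell total × 10000), for 21408 genes. From these every UMI was recovered, with all non-zero values within 0.05 of a whole number. The 12 libraries with labels held 25472 cells; 5799 other columns were not used. The P14 NORM whole-retina columns carry replicate number 8 in their names and were taken as the only library labelled for that group.

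Members, gene lists and tests were chosen with earlier results of these data known. A library's value is the mean over its cells of UMIs per 10000, on the scale log2(value + 0.2), and was compared by limma (version 3.58.1, R 4.3.3; trend, two-sided, Benjamini-Hochberg) on oxygen and age, with fraction where both were present. Genes needed a mean of 0.2 and a value above 0 in 3 libraries, and libraries 20 cells. Cells were thinned to 500 UMIs where stated. Counting intervals are 95% and cover counting error only. Doublets were called with Scrublet and kept. The fits were tested on simulated data. Named genes were, per contrast, the 15 smallest adjusted p-values in each direction past 0.05 (or the 10 smallest p-values in each direction where fewer than 10 passed), all rule genes, up to 6 past the threshold and the 4 most abundant of each list, the 25 largest ratios to other cells, and the 15 largest MGP-high to RGS5-high ratios on each side; other genes named were chosen after their values were seen. Promoters are from RefSeq GRCm38.p6 and gene positions from GENCODE M21. Scripts ran in Python 3.11.15 with scanpy 1.11.5. Results for a few genes are not reported here.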

Additional observations from a re-analysis of the deposited data

Results flagged for a closer look

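The MGP-high share of P14 OIR rod-depleted library 2, 41.5%, stood far from the other 5 OIR libraries with at least 10 called cells. Those 5 lay between 7.14% and 14.3%. P14 OIR whole-retina libraries 1 and 2 had fewer called cells, were left out, and stood at 16.7% and 0%. The MGP-high share in OIR was 1 of 14 groups examined in this way, and chance flags about 1 in 20. The OIR effect on JUNB differed between P17 and P14 by 3.31 on the log2 scale, by the test of that difference in cells with at least 3 mural genes (limma, adjusted p = 0.0183), with 2 residual degrees of freedom. P17 had 1 library of each group, which is assumed to vary like the P14 libraries. The run code of the P17 NORM library is given for no OIR library, so run and oxygen cannot be told apart there.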

How the results depend on the processing

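No paired analysis was possible because each NORM group has 1 library, so the groups compared share fewer than 2 replicate numbers. Counts below are genes past the threshold in limma, with those at an unadjusted p below 0.05 in brackets where none passed. The cause of each shift was not tested.

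OIR against NORM over all 492 cells gave 9. It gave 0 without a filter (986), with a mean of at least 1 (193), with at least 10 (384) or 30 (707) cells per library, 1 after thinning, 93 with VTN not counted, and 23 in rod-depleted libraries alone. Leaving out 1 library gave 0 to 20. In cells with at least 3 genes it gave 82, then 148 without a filter, 20 with a mean of at least 1, 154 with at least 10 cells, 31 after thinning and 17 with both. Leaving out 1 library gave 41 to 563: 41 without P14 OIR library 1, 529 without P17 OIR and 563 without P17 NORM, each with 1 residual degree of freedom. Of 45 named genes 6 kept their call throughout (S100A6, FN1, LGALS1, FABP5, SMC4 and the rule gene VTN), and none reversed.

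P17 against P14 over all cells gave 57. It gave 0 without a filter (1503), with a mean of at least 1 (456) or with at least 30 cells (536), 3 with at least 10 cells, 106 with summed UMIs, 36 without Scrublet calls, 25 with VTN not counted, 24 with no endothelial gene allowed and 9 in rod-depleted libraries. Leaving out 1 library gave 1 to 157. In cells with at least 3 genes it gave 5, then 22 without a filter, 0 with a mean of at least 1 (196), 18 with at least 30 cells, 8 after thinning, 10 with summed UMIs, 3 with quantile scaling and 0 after thinning with at least 10 cells (144). Leaving out 1 library gave 9 to 441, the highest without P17 OIR.

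Mural minus endothelial over all cells gave 6. It gave 0 without a filter (768) and after thinning (341), 3 with a mean of at least 1, 17 with summed UMIs and 2 with quantile scaling. Leaving out 1 library gave 4 to 7. In cells with at least 3 genes it gave 11, then 6 with a pseudocount of 1, 0 without a filter (848) and after thinning (335), 4 with a mean of at least 1 and 18 with summed UMIs, and 2 to 11 with 1 library left out. The planned limit of 20 cells of both types could not be fitted.

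The share of mural cells in rod-depleted minus whole retina ran from 1.65 to 2.99 percentage points with 1 library left out. OIR minus NORM ran from -0.0571 to 0.901, with p = 0.917 (exact permutation) at the reversal, and the MGP-high difference from 1.62 to 11.3. Shallow NORM cells limit what an empty count shows.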
